A study of Mus musculus with 5 samples.

Results

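Gene expression in the wild type mouse forelimb bud at E11.5, the embryonic day, was profiled on 3 arrays and is described gene by gene. The members are the 3 arrays labelled wild-type, out of 5 arrays in the series, and the 2 arrays from Sost-/-; Sostdc1-/- double mutants were not used for any value below. Per the labels, the strain was C57Bl/6 and the embryos carried no engineered allele or treatment. Neither litter nor sex is given. Embryos had not been pooled, so the 3 arrays, called replicates 1, 2 and 3 as their titles number them, were taken as separate biological samples. Total RNA of the whole dissected bud was hybridised to Affymetrix arrays, in which short oligonucleotides grouped into probe sets report the brightness of labelled RNA. A bud holds several cell types, so fewer cells of a type and less RNA per cell cannot be told apart in any value given here.

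The forelimb bud at this stage is a core of mesenchyme under a jacket of ectoderm. A posterior zone of mesenchyme secretes Sonic hedgehog, the ridge of ectoderm at the tip secretes fibroblast growth factors, and both signals keep the bud growing while it is patterned. Along the long axis, genes such as Meis2 mark the upper arm end and the Hox genes of the 5' clusters mark the forearm and hand plate. The first cartilage condenses in the centre of the bud, muscle precursors enter from the somites, and vessels carry primitive red blood cells.

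Signal was found for most genes. One probe set was taken per gene, the brightest over the 3 arrays, which gave 18193 genes, and a level is the log2 of the deposited linear intensity. The reference for absent signal was built from 109 olfactory receptor, vomeronasal receptor and keratin-associated protein genes, which limb tissue is not known to use. Their 95th percentile, the reference level, was 4.98, 5.02 and 5.26 in replicates 1, 2 and 3. In all 3 arrays 11814 genes lay above it, which is 64.9% of the genes measured, and the median level of those genes was 8.56. Another 349 genes lay above it in 2 arrays, 267 in 1 array and 5763 in none. Of the reference genes themselves, 5 lay above it in all 3 arrays. The share of 64.9% is the background for every count of list members above the reference level given below. Brightness depends on the probes as well as on the transcript, so signals of different genes give no order of transcript abundance.

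**Figure D1:**
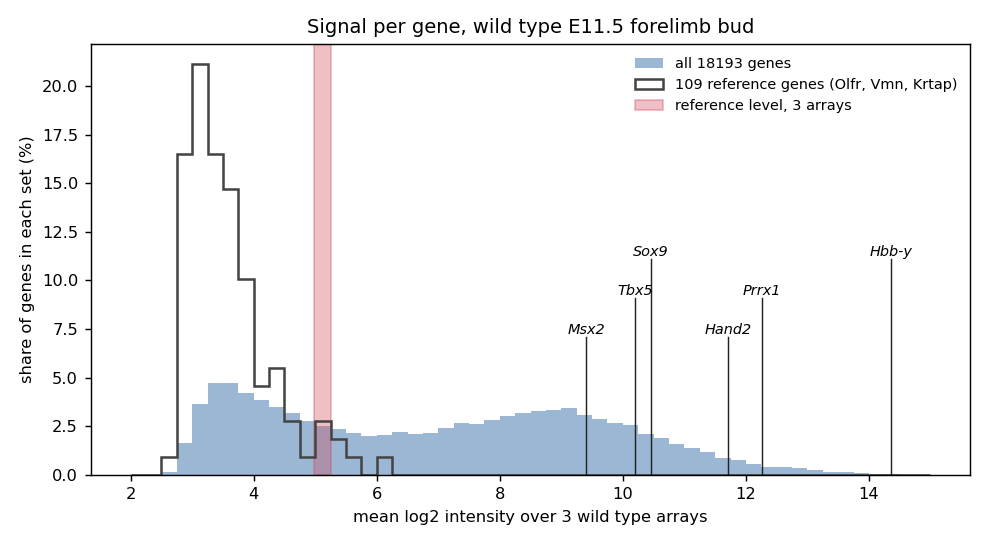
Distribution of the mean log2 intensity over 3 wild type arrays (x axis) as a share of the genes in each set in percent (y axis), for all 18193 genes (filled) and the 109 reference genes (outline), with the reference levels of the 3 arrays as a band from 4.98 to 5.26. The 6 marker genes stand to the right of the band, from Msx2 at 9.41 to Hbb-y at 14.37.

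The markers chosen to check the tissue label were all well above the reference level. Prrx1, a homeobox gene of limb mesenchyme, read 12.19, 12.27 and 12.31 in replicates 1, 2 and 3. Hand2, which sets up the posterior limb territory, read 11.66, 11.68 and 11.78. Both varied little between arrays, with means of 12.26 ± 0.06 and 11.71 ± 0.06 (SD, n = 3). Sox9, the master regulator of cartilage fate, read 10.36, 10.38 and 10.62, and its mean was 10.45 ± 0.14 (SD, n = 3). Msx2, a BMP-responsive homeobox gene, read 9.35, 9.53 and 9.35, and its mean was 9.41 ± 0.11 (SD, n = 3). Tbx5, the T-box gene that marks forelimb against hindlimb, stood apart from these in its spread. It read 10.54, 10.47 and 9.58, so that replicate 3, which also had low 5′ control probe sets as given with the control values, was the low array, and the mean was 10.20 ± 0.54 (SD, n = 3). Its second probe set had the same low array, with 9.21, 8.91 and 7.85.

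The probe sets of a marker did not always give the same order of arrays. The second probe set of Hand2 read 8.05, 8.20 and 8.05, and the third read 7.53, 7.50 and 6.71, so that replicate 3 was clearly low on the third. For Prrx1, 3 of the dimmer probe sets were low in replicate 3, one of them at 10.56, 10.31 and 9.39, while another read 10.25, 10.33 and 10.42. The low array of the third probe set of Hand2 and of those 3 of Prrx1 was that of Tbx5.

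Red blood cell genes gave some of the brightest signals. Hbb-y, the embryonic beta-like globin of primitive red cells, read 14.37, 14.34 and 14.38, a mean of 14.37 ± 0.02 (SD, n = 3). Hba-x, the embryonic zeta-like globin, read 14.10, 14.02 and 14.12. Hbb-bh1, another embryonic beta-like globin, read 13.74, 13.56 and 13.75. All 3 embryonic globins were thus steady across the arrays, with replicate 2 the lowest for each. Of 21 erythroid genes measured, 20 lay above the reference level, among them Slc4a1, the band 3 anion exchanger, at 9.92 ± 0.15 and Alas2, the first enzyme of erythroid haem synthesis, at 9.42 ± 0.15 (SD, n = 3). Hemgn had the widest range of them, with 8.30, 7.32 and 7.79. Probe sets assigned to 1 adult globin gene were dim, such as Hba-a2 with 5.58, 5.50 and 5.54, and Hba-a1 was the erythroid gene not above the reference level. Those dim values do not give the level of adult globin RNA, because 4 probe sets that carry several adult globin symbols, and so were left out, had means from 13.30 to 14.30.

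The stretches just upstream of the start of Hbb-y and Hba-x are shown because these are the embryonic globins among the 25 brightest genes, and globin promoters are known for short boxes of conserved letters close to the start. Each line gives the last 120 bases before the annotated start, 5′ to 3′ on the gene's strand, from RefSeq on GRCm38.p6, with the motifs searched in capitals. The motif CACCC stood for the CACCC box, the motif CCAAT for the CCAAT box, and the TATA-like box was searched as ATAAA, each on either strand and with no overlap between matches. Hbb-y lies on the minus strand (chr7:103853208-103853327) and Hba-x on the plus strand (chr11:32276480-32276599).
Hbb-y: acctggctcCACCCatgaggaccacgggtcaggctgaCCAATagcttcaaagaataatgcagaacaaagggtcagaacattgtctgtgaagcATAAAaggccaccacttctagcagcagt
Hba-x: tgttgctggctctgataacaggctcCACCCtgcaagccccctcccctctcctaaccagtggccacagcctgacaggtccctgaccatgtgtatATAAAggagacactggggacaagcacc
Hbb-y had 1 match to each motif, while Hba-x had 1 match to CACCC, 1 to ATAAA and 0 to CCAAT. Over 32851 promoter windows of the same length, 31.7% held CACCC, 21.3% held CCAAT, 20.2% held ATAAA and 1.01% held all 3. A match is a description of the letters and not a binding site.

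The 25 brightest genes with established symbols were mostly housekeeping genes. They comprised 17 ribosomal protein genes, the globins Hbb-y and Hba-x, the cytoskeletal genes Actb, Actg1 and Tmsb10, the translation-linked genes Eef1a1 and Tpt1, and Igf2, the imprinted fetal growth factor. Their levels lay between 13.89 and 14.45, and their median range, the highest minus the lowest array, was 0.033. Igf2 read 13.86, 13.91 and 14.03. Actb had the widest range of the 25, with 14.30, 14.27 and 13.68, and replicate 3 was its low array.

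Genes of limb mesenchyme were all present. All 16 genes of the mesenchyme list lay above the reference level, with a median level of 10.61, against 64.9% of all genes and their median of 7.01. Pdgfra, a growth factor receptor of mesenchyme, read 12.32, 12.41 and 12.32. Col1a2, a type I collagen chain, read 12.96, 12.79 and 12.81. Lmx1b, the dorsal identity gene of limb mesenchyme, had the widest range of the list with 8.46, 8.60 and 8.96, and none of the 16 spanned 2-fold.

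Forelimb identity genes were present in full and hindlimb genes in part. All 5 forelimb genes measured lay above the reference level, and besides Tbx5 they included Hoxc4, a Hox gene of the forelimb level, at 8.63, 8.46 and 8.31, and Hoxc5 at 9.95, 9.91 and 9.80. Of 5 hindlimb genes, 3 lay above it, which is 60% and close to the 64.9% of all genes. Tbx4, the hindlimb counterpart of Tbx5, read 7.37, 7.40 and 7.53, Isl1, which initiates the hindlimb bud, had a mean of 6.57 ± 0.18 and Hoxc9 one of 5.94 ± 0.14 (SD, n = 3). Pitx1, which specifies hindlimb identity, read 4.88, 4.88 and 5.28 and was above the reference level in 1 array, and Hoxc10 was above it in none.

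Posterior, anterior, distal and proximal territories were each represented. Of 14 posterior genes, 13 lay above the reference level. Shh, the posterior morphogen, read 6.95, 6.47 and 5.75, and its second probe set, which was below the reference level, had the same order with 4.57, 4.09 and 3.95. Grem1, a secreted BMP antagonist that links the posterior signal to the apical ridge, read 8.45, 7.22 and 6.07, with a mean of 7.25 ± 1.19 (SD, n = 3). Shh and Grem1 were thus both highest in replicate 1 and lowest in replicate 3, and they were the posterior genes that spanned at least 2-fold. Grem1 had only 1 probe set above the reference level, so its span had no second reading. Hoxd13, the hand plate Hox gene, was lowest in replicate 1 on its brightest probe set, with 11.67, 11.98 and 12.04, and lowest in replicate 3 on its second, with 10.38, 10.71 and 10.19. Fgf4, a ridge growth factor, was the posterior list member not above the reference level in all arrays.

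Of 8 anterior genes, 7 lay above the reference level. Gli3, the main repressor of Hedgehog targets in the limb, read 10.31, 10.50 and 10.41, and Asb4, listed here as anterior, read 11.27, 11.13 and 11.26. Alx4, an anterior homeobox gene, was below the reference level in all 3 arrays on its brightest probe set, at 4.08 ± 0.14 (SD, n = 3). All 13 distal genes lay above it, with Wnt5a, a growth factor of the distal mesenchyme, at 10.56, 10.92 and 10.68. Of 12 proximal genes, 11 lay above it, with Shox2, needed for the upper arm bone, at 11.87 in each array, and Scube2 in none. Meis2, a proximal homeobox gene, read 10.05, 9.45 and 9.27. Osr1, a zinc finger gene of proximal and connective tissue mesenchyme, read 10.37, 9.86 and 9.81. Replicate 1 was the high array for both, and on the second probe set of Meis2, while the third probe set of Meis2 read 7.84, 7.93 and 7.84.

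The apical ridge is a thin strip of cells, and not all of its genes gave signal. Of 26 ridge and fibroblast growth factor response genes, 21 lay above the reference level, and Fgf4, Fgf17, Dlx6, En1 and Wnt3 did not in all arrays. Fgf8, the ridge growth factor, read 6.98, 6.62 and 6.59. Dusp6, a phosphatase induced by that signal in the mesenchyme, read 11.21, 11.14 and 11.02. All 17 genes of the surface ectoderm list lay above the reference level, including the basal keratin genes Krt14 at 9.67 ± 0.21 and Krt5 at 9.65 ± 0.15 (SD, n = 3). Wnt7b, an ectodermal Wnt ligand, had the widest range of that list with 7.84, 8.08 and 8.48.

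Genes of early cartilage and muscle were present. Of 17 chondrogenic genes, 16 lay above the reference level, and Ihh, a signal of maturing cartilage, was above it in 1 array. Col2a1, the main cartilage collagen, read 11.09, 11.52 and 11.76. Col9a1, another cartilage collagen, had a mean of 11.91 ± 0.20 (SD, n = 3). Replicate 1 was the low array for both, but the second probe set of Col9a1 read 10.22, 10.46 and 10.17. The structural genes of later cartilage had the widest ranges, since Acan, the large cartilage proteoglycan, read 5.83, 6.45 and 6.98 and Matn1, a matrix protein, read 5.25, 6.23 and 6.76. Sox5, a partner of Sox9, ran the other way with 8.82, 8.56 and 7.87.

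Of 15 myogenic genes, 14 lay above the reference level, and Myf6, a late muscle regulator, was above it in none. Actc1, the actin of early muscle, read 12.22, 12.51 and 12.62, and Myh3, the embryonic myosin heavy chain, read 9.24, 9.66 and 10.08. Pax3, which marks migrating muscle precursors, read 6.51, 5.92 and 5.66. Replicate 1 was thus low for these contractile genes and high for Pax3. Of 11 tendon and connective tissue genes, 9 lay above it, and Tnmd, a marker of maturing tendon, and Egr2 did not.

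Vessel, blood and nerve-associated genes were also measured. Of 21 endothelial genes, 18 lay above the reference level, with Plvap at 9.30 ± 0.05 and Sox18 at 9.16 ± 0.06 (SD, n = 3), and the lymphatic markers Lyve1 and Prox1 in none. Flt1, a VEGF receptor, had the widest range of them with 7.09, 6.82 and 6.13. Of 19 macrophage and leukocyte genes, 18 lay above it, with Csf1r, the macrophage growth factor receptor, at 8.88, 9.06 and 9.06. Cx3cr1, a chemokine receptor of macrophages, read 6.46, 6.23 and 5.32, the only member of that list to span 2-fold. Of 11 pericyte and smooth muscle genes 6 lay above it, of 11 neural crest and Schwann precursor genes 8, and of 15 neuronal genes 10, which is 54.5%, 72.7% and 66.7% beside the 64.9% of all genes. Among the neuronal genes, Map2, a dendrite protein gene, had a mean of 9.37 ± 0.18, Gap43, an axon growth gene, one of 8.96 ± 0.08 and Dcx, a gene of migrating neurons, one of 7.88 ± 0.07 (SD, n = 3). The neuronal transcription factor genes Neurog1, Neurod1 and Pou4f1 were above it in no array. Of 12 somite and trunk mesoderm genes 5 lay above it, which is 41.7%. These were Foxc1, Meox1, Tcf15, Pax1 and Foxc2, with mean levels of 9.45, 7.81, 7.70, 7.18 and 7.13. Tbx6 and Uncx, which mark somitic mesoderm, were above the reference level in none.

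Genes of other organs served as a check on the dissection. Of 18 measured, 4 lay above the reference level in all arrays and 13 were below it in each array. The 4 were Mbp, Ins2, Ttr and Apoa1, with mean levels of 6.59, 6.46, 5.51 and 5.35. Afp, the alpha-fetoprotein gene of yolk sac and fetal liver, was above it in replicate 1 alone, with 5.78, 4.66 and 4.40. Replicate 1 was highest on 4 of the 5 Afp probe sets, but all except the brightest were below the reference level in each array. The Afp signal in replicate 1 thus had no second reading above the reference level. Alb, the liver albumin gene, was below it in all 3 arrays at 3.99 ± 0.10 (SD, n = 3).

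**Figure D2:**
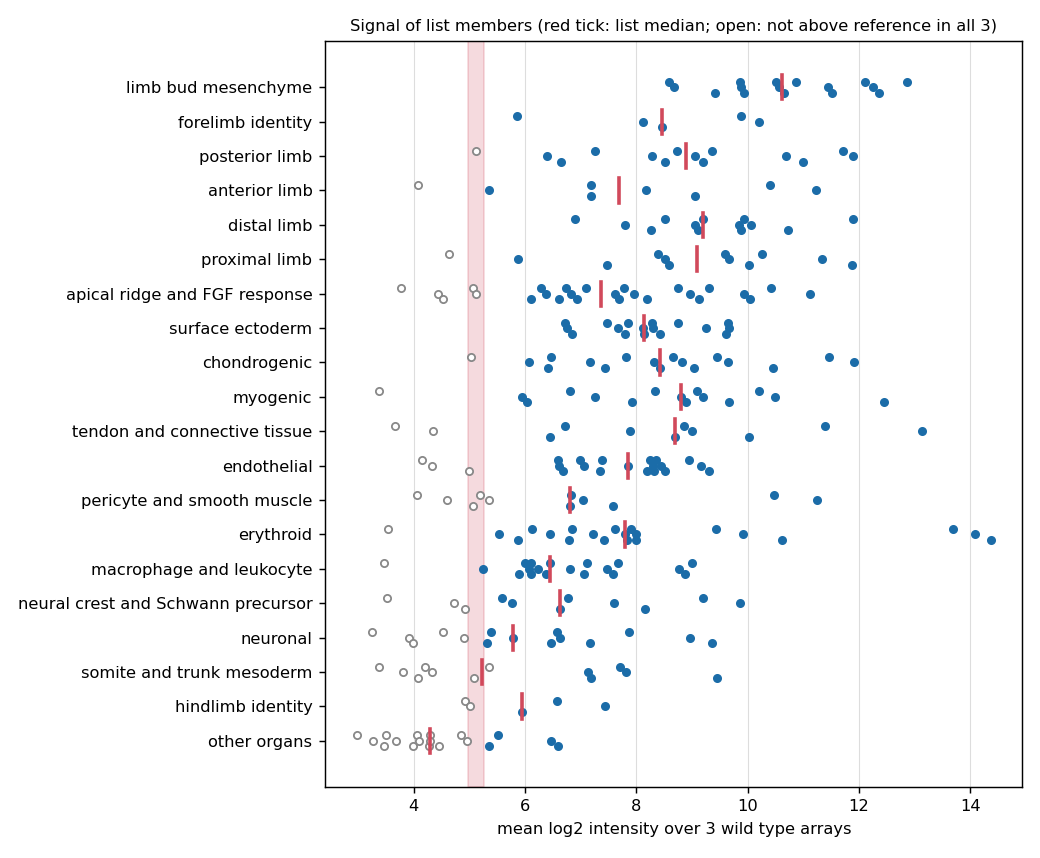
Mean log2 intensity over 3 wild type arrays (x axis) for each member of 20 gene lists (rows), filled where the gene was above the reference level in all 3 arrays and open where it was not, with a red tick at each list's median and the reference levels as a band. Mesenchyme, forelimb identity, distal and surface ectoderm genes were all filled, while 4 of 18 genes of other organs were.

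The signalling pathways of the bud were measured with their inhibitors. Of 16 Hedgehog genes, 13 lay above the reference level. The receptor gene Ptch1, itself a target of the pathway, had a mean of 10.69 ± 0.07, and the target Gli1 one of 6.64 ± 0.11 (SD, n = 3). Hhip, an antagonist induced by the pathway, was above the reference level in 2 arrays, while the other ligands Ihh and Dhh were above it in 1 and none. Of 36 Wnt ligand and receptor genes, 32 lay above it, and Wnt3, Wnt3a, Rspo4 and Lgr6 did not in all arrays. The receptor gene Fzd2 had the brightest probe set of these, with 11.07, 11.26 and 10.86.

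Secreted Wnt antagonists include the genes the series is about. Sostdc1, an antagonist of Wnt and BMP signals, read 9.42, 8.94 and 9.15, a mean of 9.17 ± 0.24 (SD, n = 3). Sost, which encodes the Wnt co-receptor antagonist sclerostin, read 6.75, 6.19 and 6.47, a mean of 6.47 ± 0.28 (SD, n = 3). Both were highest in replicate 1 and lowest in replicate 2 on these probe sets, which exceeded the reference level in every array. The second probe set of Sostdc1 had another order, with 8.75, 8.90 and 9.01, and that of Sost was not above the reference level in all arrays, with 5.13, 4.36 and 4.18. Of the 14 antagonists measured, 11 did so, and Dkk4, Sfrp4 and Sfrp5 did not. Of 11 Wnt feedback targets, 10 lay above the reference level, with Axin2, a direct target that restrains the pathway, at 8.93, 9.12 and 9.31, and Rnf43 in none.

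Of 28 BMP genes, 27 lay above the reference level, and Chrdl2, an antagonist, was above it in 2 arrays. The ligand Bmp4 had a mean of 10.75 ± 0.15, the receptor Bmpr1a one of 10.84 ± 0.18 and the target Id1 one of 11.84 ± 0.07 (SD, n = 3). Of 17 retinoic acid genes, 15 lay above it. Aldh1a2, the main synthesising enzyme of the embryo, read 8.86, 9.03 and 9.49, and Cyp26b1, which degrades retinoic acid in the distal bud, read 10.09, 10.06 and 10.06. The alternative enzymes Aldh1a1 and Aldh1a3 were above it in no array. Of 18 Notch genes, 15 lay above it, with the receptor Notch2 at 10.39, 10.27 and 10.29.

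The 3 arrays resembled each other closely. Over all probe sets the log2 values correlated at r = 0.995 between replicates 1 and 2, 0.991 between 1 and 3 and 0.995 between 2 and 3, a description across probe sets that share an array and a normalization. Exactly equal values occurred in 5664 to 5981 probe sets per pair of arrays, as for Shox2 above. A range of 0 is therefore not read as a measured absence of spread. Of the 11814 genes above the reference level, 9000 had 3 different values. Genes with ties were kept in the ranges below, which ties can make smaller. The median range over genes above the reference level was 0.15, a factor of 1.11, and the 90th and 99th percentiles were factors of 1.31 and 1.83. Spread was smaller at higher levels, with a median range of 0.22 in the dimmest eighth of these genes and 0.087 in the brightest.

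Few genes differed 2-fold between the arrays. A range of at least 1 on the log2 scale, a 2-fold span, was found for 80 genes, 0.677% of those above the reference level. Replicate 1 was the highest array for 56 of them and replicate 3 the lowest for 56. Without replicate 1 the count was 19, and without replicate 3 it was 23. With 1 group of 3 arrays no test was made, and the 80 genes are described as they were found.

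**Figure D3:**
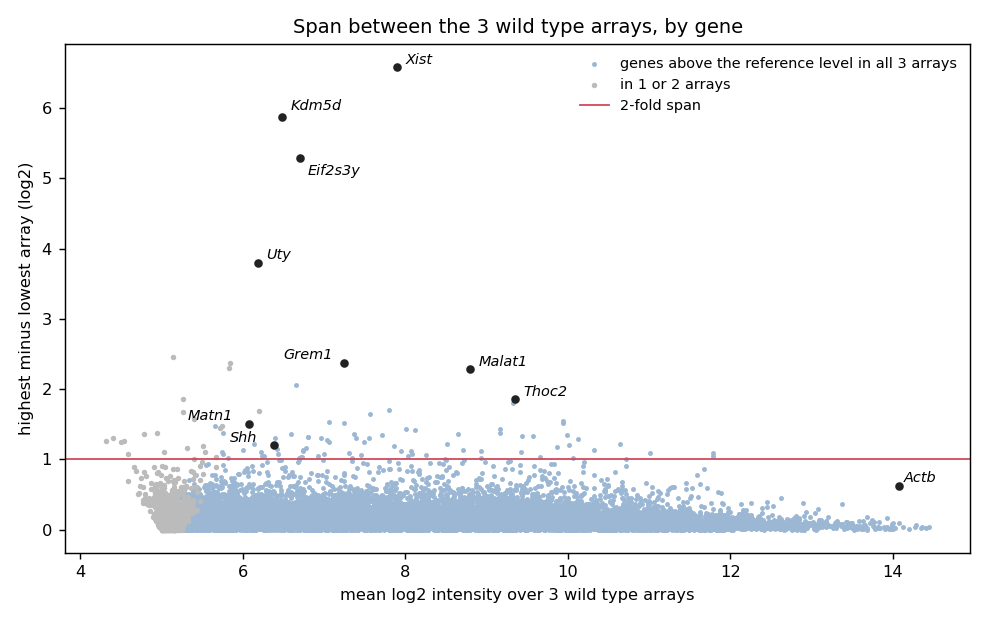
Highest minus lowest of the 3 wild type arrays in log2 units (y axis) against mean log2 intensity (x axis) for genes above the reference level in all 3 arrays (blue) or in 1 or 2 arrays (grey), with a line at a 2-fold span. Xist, Grem1 and Malat1 stand highest among the 80 blue points at or above the line, and the Y-linked Kdm5d, Eif2s3y and Uty among the grey points.

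The widest spans belonged to sex-linked genes. Xist, the noncoding RNA of the silenced X chromosome, read 12.28, 5.73 and 5.70. Replicate 1 was also high on its other probe sets, one with 11.18, 3.43 and 3.41 and one with 8.45, 3.44 and 3.75. The Y-linked gene Kdm5d read 2.59, 8.47 and 8.41, Eif2s3y read 3.20, 8.49 and 8.42, and Uty read 3.84, 7.64 and 7.07. Replicate 1 was thus the high array for Xist and the low array for these 3 Y-linked genes, although the brightest Xist probe set stayed above the reference level in replicates 2 and 3. Sry, the Y-linked testis-determining gene, was also lowest in replicate 1, with 5.07, 5.47 and 5.35, but by less and above the reference level in each array. The Y-linked Usp9y and Zfy2 were below it in all 3 with equal values of 3.61 and 3.75, which give no order of arrays. A difference of replicate 1 from both other arrays cannot be told apart from one that goes with these sex-linked genes.

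X-linked genes as a whole had about the deviation of autosomal genes. The median deviation of replicate 1 from the mean of the 3 arrays was -0.023 over 382 X-linked genes and -0.024 over 11413 autosomal genes. Genes known to escape X inactivation, chosen after their values were seen, are given beside the 26.9% of all probe sets above the reference level that were highest in replicate 1, and with no claim for such genes in general. Eif2s3x, the X-linked partner of Eif2s3y, read 12.21, 11.69 and 11.75, and replicate 1 was highest on 3 of its 3 probe sets. Kdm6a, a histone demethylase gene and the partner of Uty, read 9.55, 8.83 and 8.43, and replicate 1 was highest on both of its probe sets above the reference level. Kdm5c, the partner of Kdm5d, had replicate 1 highest on 5 of 5 such probe sets. Ddx3x, an RNA helicase gene, was lowest in replicate 1 on its brightest probe set, with 12.48, 12.65 and 12.65, and highest there on the other 2.

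Other genes of wide range included some for nuclear RNAs and RNA handling, and their dimmer probe sets often did not repeat the span. Malat1, a long noncoding RNA of nuclear speckles, read 10.13, 8.43 and 7.84, and replicate 1 was highest on 5 of its 5 probe sets above the reference level. Snhg12, a host transcript of small nucleolar RNAs, read 7.50, 7.03 and 5.43. Thoc2, a subunit of the mRNA export complex THO, read 10.45, 9.03 and 8.59, Rbfox2, a splicing factor gene, read 10.36, 10.51 and 8.96, and Xrn1, the cytoplasmic exonuclease gene, read 7.91, 6.39 and 6.89. Among genes above the reference level in all 3 arrays, Xist, Grem1, Malat1 and Snhg12 were the 4 that spanned at least 4-fold. Kdm5d, Eif2s3y, Uty, Zfp626, Zbed6 and Calb1 also spanned that much but were above the reference level in only 2 arrays each. The second probe set of Thoc2 read 8.81, 8.92 and 9.05, in the opposite order, while the third read 9.04, 8.26 and 8.08. The second probe set of Rbfox2 had a range of 0.11, and that of Xrn1 read 6.52, 6.75 and 6.42. The spans of Thoc2, Rbfox2 and Xrn1 thus rested on certain probe sets. No list of RNA genes had been fixed, so these are examples and not a theme. The 25 had ranges from 1.34 for Sbno1, a putative helicase gene, to 6.58 for Xist, and the rest of them included Ubn1, Xpo4, Zdhhc21, Knl1, Nrk, Reep3, Srpk2, Vapb and Crim1.

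Some wide genes ran in the opposite sense, with replicate 1 low. Besides Matn1 and Acan these included S100a8, a neutrophil calcium-binding protein gene, with 5.01, 5.88 and 6.38, and Neb, the muscle protein nebulin gene, with 6.06, 6.97 and 7.37. Neb and Myl4, a myosin light chain gene at 7.94, 8.60 and 8.94, had the same low array as Myh3. The 80 genes had a median genomic length of 50.1 kb, against 23.9 kb over the genes above the reference level. The 56 of them lowest in replicate 3 had one of 57.8 kb and the others 38.9 kb.

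Replicate 3 also stood apart on the manufacturer's control probe sets, which show RNA state and labelling. The probe set at the 5′ end of 18S ribosomal RNA read 13.64, 13.08 and 6.99, and that at its 3′ end 8.37, 8.36 and 7.37. The probe set at the 5′ end of Actb read 13.97, 13.92 and 12.97, and that at its 3′ end 14.17, 14.16 and 13.65. The 3′ minus 5′ difference of Actb was 0.20, 0.24 and 0.68. For Tfrc, the transferrin receptor gene, the 5′ probe set read 6.44, 5.96 and 4.71 and the 3′ probe set 8.06, 7.73 and 6.80. Gapdh did not show this, with 3′ minus 5′ differences of -0.14, -0.10 and -0.06. The low values of replicate 3 on 18S, Actb and Tfrc were thus larger at the 5′ end but not confined to it. The part of RNA state and labelling in the low values of replicate 3 was not tested.

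Gene lists differed in which array was extreme. Over all genes above the reference level, replicate 1 was lowest in 44.5%, replicate 2 in 21.1% and replicate 3 in 20.6%, while replicate 1 was highest in 20.6% and replicate 3 in 43.9%. The median deviations behind this were small, at -0.024 in replicate 1 and 0.025 in replicate 3. Over 20443 single probe sets above the reference level, replicate 1 was lowest in 38.5%, replicate 2 in 19.8% and replicate 3 in 29.6%. On these, replicate 1 was highest in 26.9% and replicate 3 in 37.9%. Probe set counts of a list include the brightest probe set of each gene, so they partly repeat its gene counts.

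Proximal and forelimb identity genes leaned towards replicate 1. Of the 11 proximal genes above the reference level, replicate 1 was highest for 8 and lowest for 0, and over their 16 probe sets it was highest on 12 and lowest on 0. The list's median deviation was 0.18 in replicate 1. Of the 5 forelimb identity genes, replicate 1 was highest and replicate 3 lowest for all 5, and over their 10 probe sets replicate 3 was lowest on 10. Posterior genes were more mixed, with replicate 3 lowest for 6 of 13, and lowest on 13 of 20 probe sets.

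Cartilage, ectoderm and macrophage genes leaned the other way. Of the 16 chondrogenic genes, replicate 1 was lowest for 14 and replicate 3 highest for 12, and the median deviations were -0.19 and 0.15. Over their 30 probe sets, replicate 1 was lowest on 18 and highest on 8, and replicate 3 was lowest on 8 and highest on 16. Replicate 1 was highest for 1 of the 16 genes, so most of its high readings came from dimmer probe sets. The lean was weaker over the probe sets, with a median deviation of -0.088 in replicate 1. Of 14 myogenic genes, replicate 1 was lowest for 7, near the share over all genes, and replicate 3 highest for 9. Over their 22 probe sets, replicate 1 was lowest on 8 and highest on 7, and replicate 3 was lowest on 6 and highest on 10. Of 17 ectoderm genes and 18 macrophage genes, replicate 1 was lowest for 12 in each case, and on 18 of 29 and 17 of 25 probe sets. Of 20 erythroid genes, replicate 2 was lowest for 13. Replicate 1 was also the array with high Xist signal and replicate 3 the one with low 5′ control probe sets, and their part in these leanings was not tested.

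**Figure D4:**
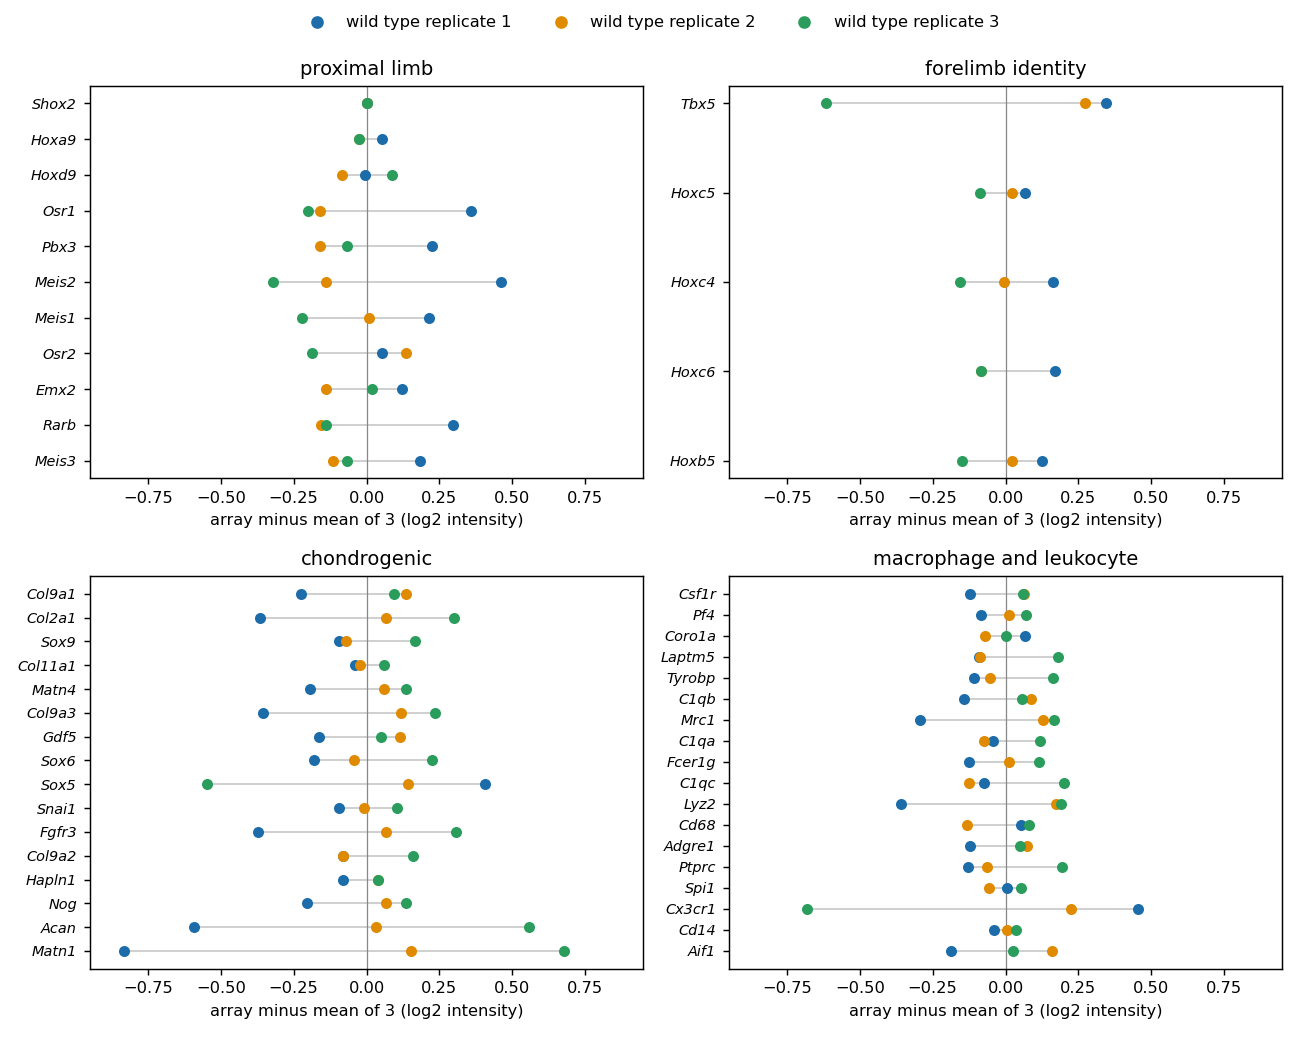
Each array's log2 intensity minus the mean of the 3 wild type arrays (x axis) for the genes above the reference level (rows) of 4 lists, with replicate 1 in blue, replicate 2 in orange and replicate 3 in green; equal values overlap. Replicate 1 lies to the right for 8 of 11 proximal genes and 5 of 5 forelimb genes, and to the left for 14 of 16 chondrogenic and 12 of 18 macrophage genes.

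Proliferation genes were bright. All 22 replication genes and all 21 mitosis genes lay above the reference level, with median levels of 10.97 and 11.34 and median ranges of 0.091 and 0.12. Those ranges were like those of other genes as bright, for which the median was 0.12 in the second brightest eighth and 0.087 in the brightest. Some dimmer probe sets spread far more, such as those of the centromere protein genes Cenpe, with 9.29, 7.41 and 7.28, and Cenpf, with 8.56, 6.68 and 6.07. Pcna, the DNA polymerase clamp, read 13.53, 13.58 and 13.53, and Ube2c, a ubiquitin-conjugating enzyme of mitosis, read 12.70, 12.67 and 12.58. Replicate 1 was highest for 14 of the 21 mitosis genes, and on 23 of 35 probe sets. That count of genes was 7 when the arrays were set to equal medians and 14 under quantile normalization. It was 17 when the arrays were centred on the genes above the reference level, so it depends on array scaling.

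A second probe set of the same gene gave another reading on the same array. Whether both probe sets bound the same transcript was not tested. Of the genes above the reference level, 5317 had a second probe set above it as well. Over those genes, the deviations of an array on both probe sets correlated at r = -0.03, 0.08 and -0.02 in replicates 1, 2 and 3, a description across genes. Among 3506 genes with 3 different values on both probe sets, the same array was highest in 36.3% and the same array lowest in 35.7%. For most of these genes, the order of the arrays was thus not the same on the second probe set.

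The second probe sets also spread more, and in 1 direction. Of the 5317, 300 spanned 2-fold, which is 5.64%, against 44 of the brightest probe sets of the same genes, which is 0.828%. Replicate 3 was lowest on 243 of the 300 and replicate 1 on 0, while replicate 1 was highest on 254 and replicate 3 on 0. At a span of at least 0.5, which 1020 second probe sets reached, replicate 3 was lowest on 797 and replicate 1 on 103. Over all 20443 probe sets above the reference level, 690 spanned 2-fold, which is 3.38%, and replicate 3 was lowest on 577 and replicate 1 on 12. These are the same arrays as at the extremes of the 5′ control probe sets of 18S RNA, Actb and Tfrc. Positions of probe sets along their transcripts were not analysed here, and their part in this spread was not tested.

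**Figure D5:**
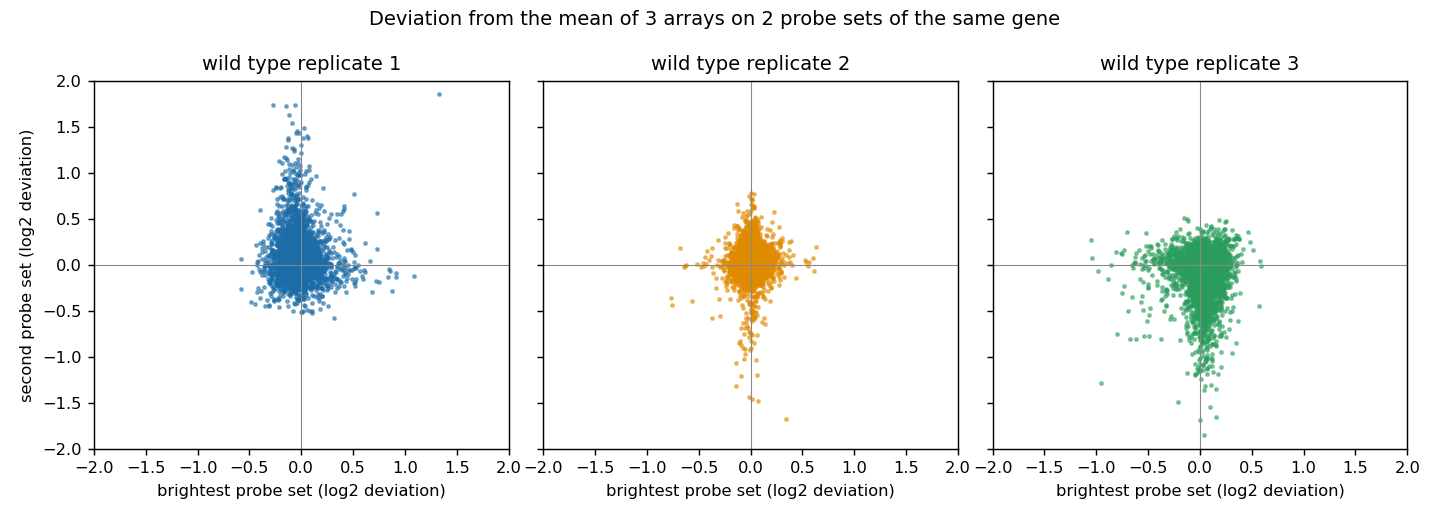
Deviation of each array from the mean of the 3 wild type arrays in log2 units on the brightest probe set (x axis) and the second brightest (y axis) of 5317 genes, 1 panel per array. The points of replicate 1 extend upwards and those of replicate 3 downwards, on the second probe set more than on the brightest.

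Of the 80 genes that spanned 2-fold, 44 had a second probe set above the reference level. The same array was highest in 11 of them, the same lowest in 15, and both in 7. Over the 3506 genes with 3 different values on both probe sets, the shares were 36.3% for the highest and 35.7% for the lowest. Those shares leave out ties, while among the 44 a tie was given to the lower-numbered replicate, as on the second probe set of Rasal2. The sets are thus not fully alike, and the counts of 11 and 15 of 44 did not exceed those shares. In 5 of the 44 the second probe set also spanned 2-fold, and these were Malat1, Reep3, Cped1, Slx4ip and Usf1. All 5 were lowest in replicate 3 on both probe sets. Malat1 read 9.65, 7.22 and 6.52 on the second probe set, the same order as on the brightest.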

How the data were processed

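Biotin labelling followed a protocol of 2 amplification rounds per the labels, which starts at the poly-A tail and favours 3′ ends. The authors deposited linear intensities. Of tools, RMA and limma are listed in the submitters' processing notes, and settings are not given in the sources used here. The log2 of the deposited intensities was taken with no further normalization or pseudocount; array medians were 5.38, 5.34 and 5.30. Of 45101 probe sets, 64 were controls, 34945 carried 1 gene symbol in the platform annotation (34741 matched the reference table by gene identifier), 932 several and 9160 none. The number of arrays limits the precision. One group of 3 arrays was described by means, SDs, ranges and counts, without tests. The members and gene lists were chosen with earlier results of these data known. The naming rule took the 6 markers, each list's 3 brightest and 3 widest members, the 25 brightest and 25 widest genes with established symbols, and any gene completing a count of 5 or fewer; only part of these are printed, and other genes are named for their role. Alternatives changed the scaling, probe set, log offset, reference level, fold and arrays used. Python 3.11.15, pandas 2.3.3 and numpy 2.4.6 were used, and the counting was tested on simulated data.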

Additional observations from a re-analysis of the deposited data

Results flagged for a closer look

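Signal appeared in probe sets that the gene-level description did not use. Of those with no gene symbol in the annotation, 1493 lay above the reference level in all 3 arrays, which is 16.3% of them. The 4 probe sets that carry several adult globin symbols were also unused, and the brightest, shared by Hba-a2 and Hba-a1, had a mean log2 intensity of 14.30. It read 14.23, 14.26 and 14.40 in replicates 1, 2 and 3. Which globin RNAs bound these probes was not tested.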

How the results depend on the processing

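The count of genes above the reference level, 11814 as reported, lay between 11028 with the 99th percentile of the reference genes and 15847 with the highest non-mouse spike-in as reference, and was 5320 with the second brightest probe set, which exists for fewer genes. Leaving out 1 array gave 11829 to 12115. The count of genes spanning 2-fold, 80 as reported, was 300 with the second brightest probe set, 360 at 1.5-fold and 4 at 4-fold, and 19 to 73 with 1 array left out. It lay between 55 and 107 under the other settings, among them equal medians, quantile normalization, no filter on level and 2 settings added after seeing the data. Of the list medians under alternatives, 264 of 340 moved by less than the spread between arrays, as did 902 of 942 list deviations. That spread, the median SD over a list's genes, can exceed the list deviation itself, so a change of sign can pass as small. For myogenic genes in replicate 1 the deviation was -0.10 as reported and 0.025 over their probe sets above the reference level. Of the counts of list members by extreme array, 17 of 126 moved by over 1.5 times or away from 0, and of those above the reference level 32 of 340. The count of mitosis genes highest in replicate 1 ranged from 7 to 17. No paired analysis was possible because 1 group was described. Dim genes are the least precise, since the median range was 0.22 in the dimmest eighth.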

Other observations

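Stress, metabolic and imprinted genes complete the profile. Of 21 immediate early genes, 16 lay above the reference level, with Fos at 5.93, 6.23 and 6.35 and Ier2 at 10.34 ± 0.07 (SD, n = 3), while Fosb, Fosl1 and Egr2 were above it in no array and Junb and Atf3 in 1. Of 13 heat shock genes, 11 lay above it. The constitutive chaperone gene Hspa8 read 13.64, 13.63 and 13.64, while of the stress-inducible genes Hspa1a was below the reference level in each array, at 4.69 ± 0.21, and Hspa1b above it in each, at 7.09 ± 0.07 (SD, n = 3). These genes are near-identical copies, so their probe sets may not separate them.

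Of 20 hypoxia and glycolysis genes, 18 lay above the reference level with a median range of 0.086, among them the glycolytic genes Pgk1 at 13.00 ± 0.04 and Ldha at 12.61 ± 0.01 (SD, n = 3). The hypoxia-inducible Car9 and Adm were above it in 2 arrays each. Of 21 imprinted genes, 20 lay above it, and Peg10 was above it in 2 arrays. Igf2, Gnas and Mest had mean levels of 13.93, 13.49 and 13.36, and Kcnq1ot1, a noncoding RNA, had the widest range of them with 7.38, 6.76 and 7.14.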
